A study of Saccharomyces cerevisiae with 32 samples.

Results

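The genes of the mitochondrial protein import machinery of budding yeast were followed through mutants of the translation helicases Ded1 and eIF4A. They were chosen by name as 32 genes for subunits of the translocases, chaperones and peptidases that bring proteins into mitochondria, and 31 of the 32 were found in all 4 deposited tables. TIM54 was not analysed here. The tables held 4918 to 5326 genes each. All 31 genes passed the abundance floor of 10 that was set for both assays, as did 4855, 5238, 4833 and 4854 genes in all.

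Nearly all mitochondrial proteins are made on cytosolic ribosomes and cross the outer membrane through the TOM complex, in which receptors hand precursors to the Tom40 pore. From there, small Tim chaperones carry membrane proteins to the TIM22 or SAM complexes, the disulfide relay of Mia40 and Erv1 folds proteins of the intermembrane space, and the TIM23 complex with its import motor draws presequence proteins into the matrix. Several of these subunits are among the shortest proteins of the cell while others are several times longer, so the machinery holds both very short and long coding sequences.

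Ded1 and eIF4A belong to the DEAD-box family of RNA helicases and help ribosomes bind mRNA and scan for the start codon; TIF1 and a near-identical copy, TIF2, both encode eIF4A. The study asked how mutations in either helicase change translational efficiency (TE), which is the ribosome footprint level of a gene relative to its mRNA level. The 32 samples were 16 mRNA and 16 footprint libraries in 16 groups of 2, made from whole cells grown in synthetic complete medium. The cold-sensitive mutant ded1-cs (NSY5) was set against wild-type DED1 (NSY4) at 15 °C, and the temperature-sensitive mutant ded1-ts (NSY11) against wild-type DED1 (NSY10) at 37 °C. The temperature-sensitive mutant tif1-ts (NSY21) was set against wild-type TIF1 (NSY20) at 30 °C and at 37 °C. Every culture, wild types included, was treated for 2 min with cycloheximide (100 µg/ml), which holds elongating ribosomes in place. The labels do not say whether the TIF2 copy is present in the TIF1 strains.

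The deposited values are log2 levels with 1 value per group, so no difference below has a replicate check, no test was possible, and "higher" and "lower" describe these libraries. All changes are log2 of mutant over wild type within 1 table and are relative to the other genes of that table. Footprint depth, estimated from the steps between low values, lay between 3.88 M and 12.07 M reads, with tif1-ts at 37 °C the shallowest. The estimate is least certain for ded1-cs, where 47.3% of low values came out as whole reads against 81.8% to 100% in the other columns. For mRNA no depth could be estimated. DED1 itself had an mRNA change of 0.95 in ded1-cs and -0.77 in ded1-ts per the authors' deposited table. The labels do not say how the alleles alter DED1, so its level does not check them. TIF1 was not analysed here.

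In the 4 wild types, import genes were translated more efficiently than the typical gene. Their median TE level (log2 footprints minus log2 mRNA, the authors' values) was 0.36 and 0.58 in wild-type DED1 at 15 °C and 37 °C, and 0.53 and 0.30 in wild-type TIF1 at 30 °C and 37 °C. The median of all genes lay between 0.01 and 0.02 in these columns. TOM40 (YMR203W), the pore of the outer membrane, had a TE level of 1.95, 1.82, 1.84 and 1.83 in that order, always above at least 96.8% of all genes. TIM50 (YPL063W), the receptor of the TIM23 complex, followed with 1.33 to 1.62, TOM70 (YNL121C), the receptor for carrier precursors, with 1.16 to 1.84, and TOM22 (YNL131W), the central receptor, with 0.94 to 1.68. By the mean of the 4 wild types the lowest TE levels were those of TIM21 (YGR033C), a TIM23 subunit, at -0.71 to -0.37, and of SAM50 (YNL026W), the barrel of the sorting and assembly complex, at -0.74 to -0.36, although single wild types differed. ERV1 and PAM16 were below TIM21 at 15 °C, TIM23 and ERV1 below SAM50 in wild-type DED1 at 37 °C, and MAS1 below SAM50 in wild-type TIF1 at 37 °C.

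**Figure D1:**
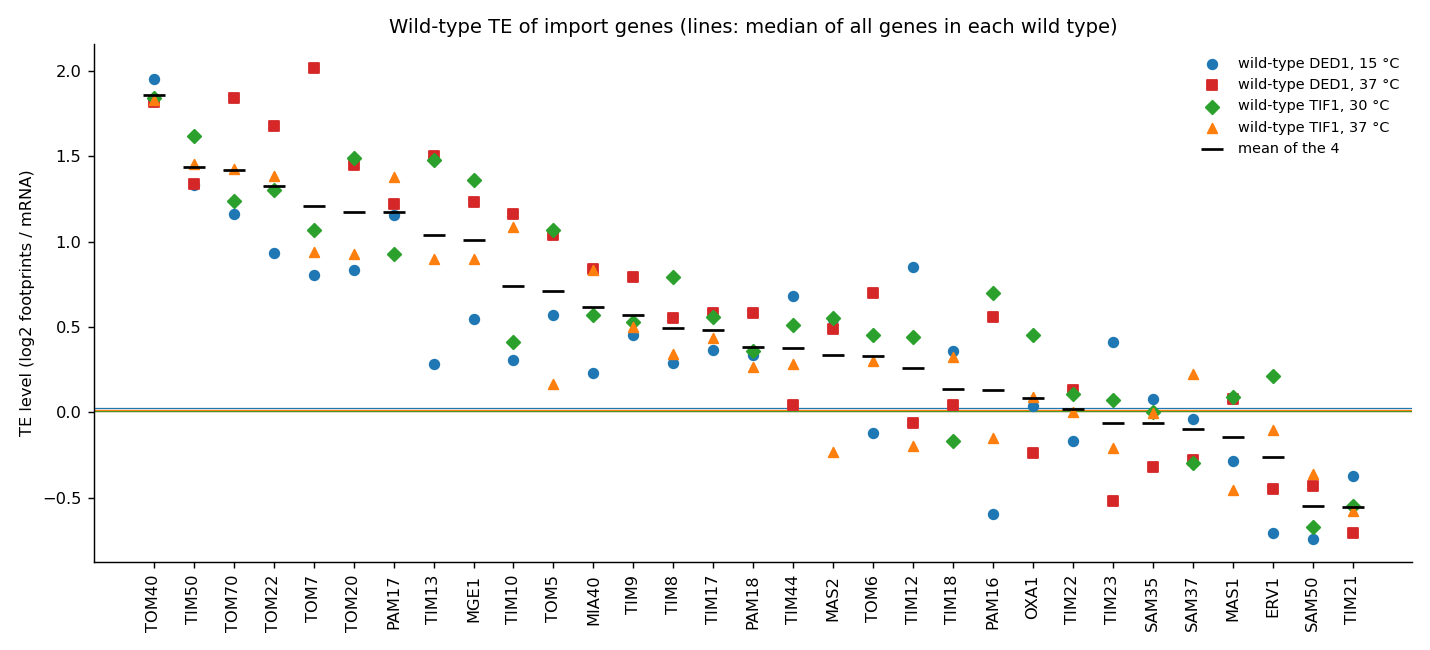
TE level of each import gene (log2 footprints minus log2 mRNA) in the 4 wild types, ordered by the mean of the 4, with 1 point per deposited column and lines at the median of all genes. TOM40 sits between 1.82 and 1.95 in every wild type, while PAM16 runs from -0.60 to 0.70.

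The spread between wild types was wide for some genes. PAM16 (YJL104W), a regulator of the import motor, had TE levels of -0.60, 0.56, 0.70 and -0.15 in the same order, and TIM12 (YBR091C), a small chaperone that sits on the TIM22 complex, had 0.85, -0.06, 0.44 and -0.20. TOM7 (YNL070W), a short subunit that tunes TOM assembly, ranged from 0.80 at 15 °C to 2.02 in wild-type DED1 at 37 °C. The tables were normalized separately and the wild types are different strains at different temperatures, which cannot be told apart here.

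Footprints per kilobase of coding length approximate how much synthesis each subunit received relative to the others, but synthesis itself was not measured. TOM22 had the highest footprint level per kilobase of the 30 import genes with an intron-free length in all 4 wild types, and TOM40 was among the first 4 in each. SAM37 and SAM50 held the last 2 places in wild-type DED1 at 15 °C and 37 °C and in wild-type TIF1 at 30 °C and 37 °C. TOM22 and TOM40 differed by a log2 footprint ratio per kilobase of 0.03, 0.20, 0.10 and 0.10 in the 4 wild types. Their mRNA ratio per kilobase was 1.04, 0.34, 0.64 and 0.54, so the receptor had more mRNA and both had nearly the same footprint density.

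In ded1-cs at 15 °C the import genes split. The outer membrane receptors, the small TOM subunits and the disulfide relay had higher TE, whereas the 4 TIM23 subunits among the members and TIM44 had lower TE. MGR2, a TIM23 partner outside the members, had a TE change of 0.38 per the authors' deposited table. The median TE change of the 31 genes was 0.47 against 0.10 for all genes, and the range ran from -1.97 to 1.38. Of the 31, 21 were above 0 and 10 below, against 53.9% and 46.1% of all genes. At least 2-fold lower TE was found for 3 import genes, TIM44, TIM50 and SAM35, where 17.4% of all genes were lower by that much. At least 2-fold higher TE was found for 4, PAM16, TOM6, TOM7 and MIA40, where the share of all genes was 8.63%. Past 1.5-fold, 7 were lower and 11 higher, against 26.9% and 25.6% of all genes.

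**Figure D2:**
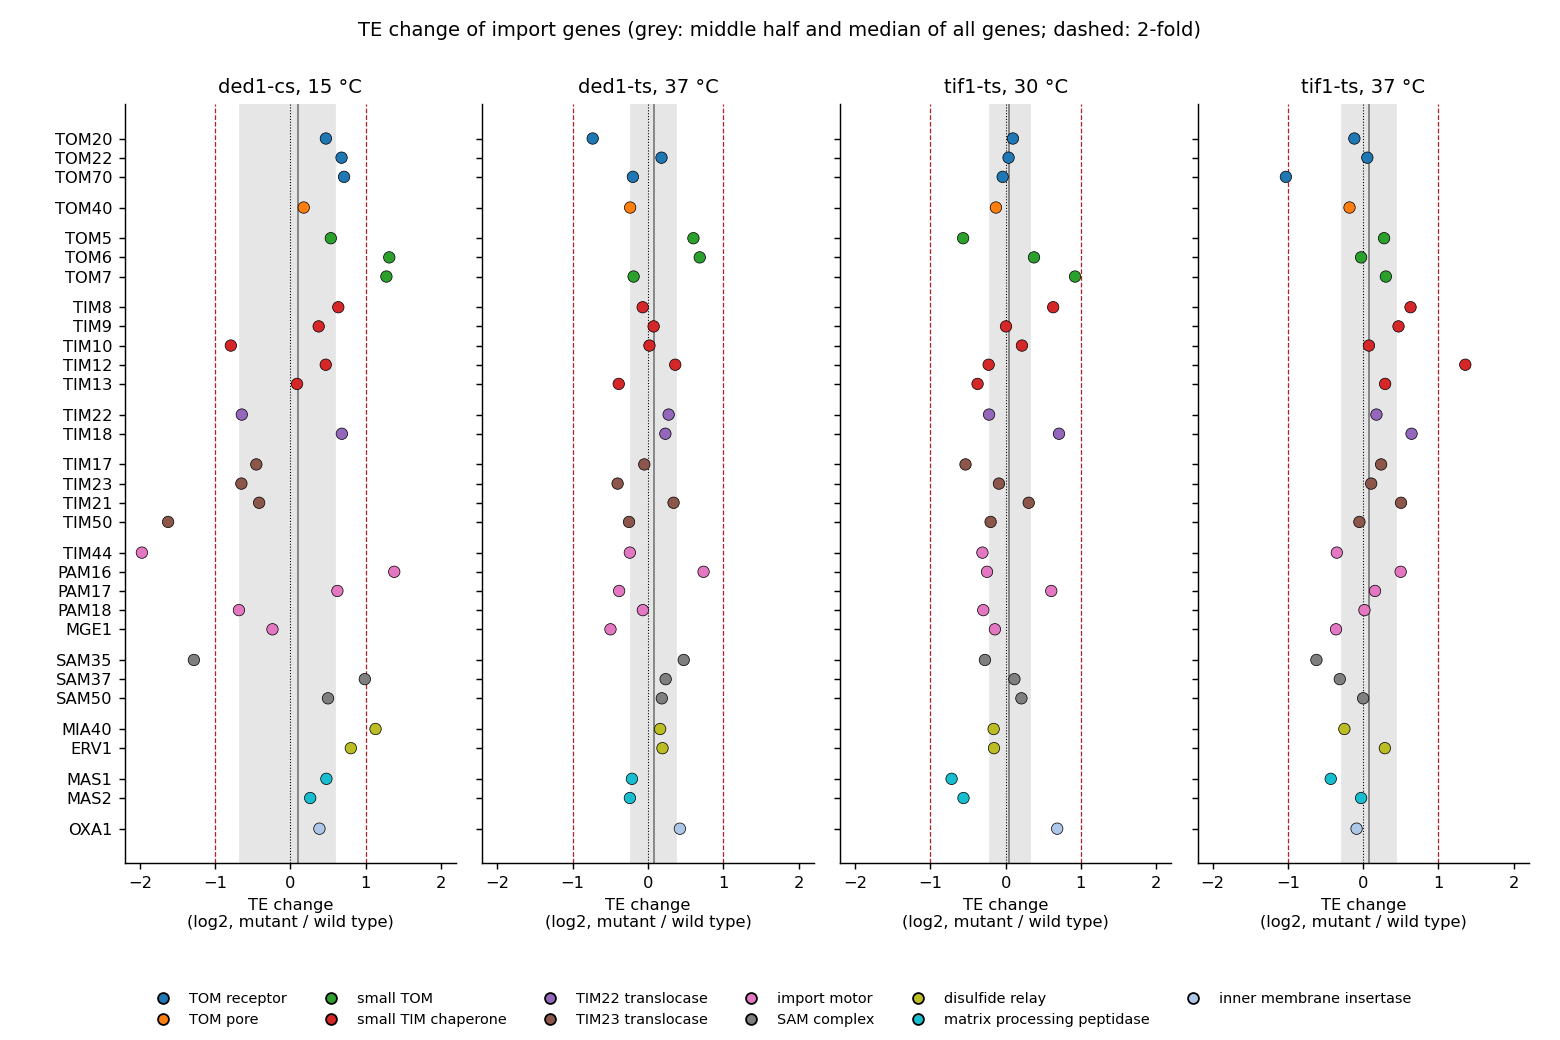
TE change (log2, mutant over wild type) of each import gene in the 4 comparisons, coloured by role, with 1 point per gene from the authors' deposited tables. The grey band and line give the middle of the distribution and the median of all genes, and dashed lines mark 2-fold; in ded1-cs the points run from -1.97 for TIM44 to 1.38 for PAM16, while in ded1-ts all lie between -0.73 and 0.74.

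The 3 receptors of the TOM complex all had higher TE in ded1-cs. The log2 footprint level of TOM22 was 9.14 in wild-type DED1 and 9.81 in ded1-cs, and its mRNA was at 8.2 in both. TOM70 footprints went from 10.06 to 10.44 while its mRNA went from 8.9 to 8.6. The TE changes were 0.68 for TOM22, 0.71 for TOM70 and 0.47 for TOM20 (YGR082W), the presequence receptor, per the authors' deposited table. The TOM40 pore gained less, with footprint levels of 10.45 and 10.69, mRNA levels of 8.5 and 8.6, and a TE change of 0.18 per the authors' deposited table.

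Of the small TOM subunits, TOM6 and TOM7 stood at the upper end of the import genes and TOM5 did not. TOM6 (YOR045W), which stabilises the TOM complex, had footprint levels of 7.38 and 8.48 and mRNA levels of 7.5 and 7.3 in wild type and ded1-cs. Its TE change of 1.31, or 2.49-fold, was higher than that of 97.7% of all genes per the authors' deposited table. Among the 187 genes under 120 residues, 32.1% had a TE at least 2-fold higher in ded1-cs, and their median TE change was 0.72. TOM7 moved alike, with footprints at 7.50 and 8.50 and mRNA at 6.7 and 6.4, and a TE change of 1.28 per the authors' deposited table. TOM5 (YPR133W-A), which passes precursors on from the receptors, had footprints at 6.97 and 7.52, mRNA at 6.4 and 6.5 and a TE change of 0.54 per the authors' deposited table. Counting error alone gave the footprint change a standard error of 0.12 for TOM5 and 0.10 for TOM6, which leaves out differences between cultures.

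Among the 5 small chaperones of the intermembrane space, 4 had TE changes above 0, near the 81.3% of all genes under 120 residues that were above 0, and TIM10 was below 0. TIM10 (YHR005C-A) footprints went from 8.11 to 7.31 at mRNA levels of 7.8 and 7.8, a TE change of -0.79 per the authors' deposited table. TIM9 (YEL020W-A), its partner in the hexameric chaperone for carrier precursors, had footprints at 6.75 and 6.91, mRNA at 6.3 and 6.1 and a TE change of 0.38 per the authors' deposited table. The other chaperone pair, TIM8 (YJR135W-A) and TIM13 (YGR181W), also moved unequally. TIM8 footprints went from 7.29 to 8.18 with mRNA at 7.0 and 7.2, and TIM13 footprints from 6.98 to 6.89 with mRNA at 6.7 and 6.6. Their TE changes were 0.64 and 0.09 per the authors' deposited table. TIM12 had more of both, with footprints at 6.45 and 7.26, mRNA at 5.6 and 6.0 and a TE change of 0.47 per the authors' deposited table.

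The TIM23 complex and its motor, the presequence pathway through the inner membrane, held 7 of the 10 import genes with TE changes below 0, and 7 of its 9 members were below 0 where 46.1% of all genes were. TIM50 footprints went from 9.33 to 7.84 on the log2 scale while its mRNA was 8.0 and 8.2, a 3.08-fold lower TE at a change of -1.62 per the authors' deposited table. The channel subunits were lower by less, with TE changes of -0.65 for TIM23 (YNR017W) and -0.45 for TIM17 (YJL143W) per the authors' deposited table. TIM21 had a value of -0.41 per the authors' deposited table. TIM22 (YDL217C), the channel for carrier proteins in the other inner membrane complex, had -0.65, and its partner TIM18 (YOR297C) had 0.68 per the authors' deposited table.

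TIM44 (YIL022W), which tethers the matrix Hsp70 to the channel, had the lowest TE change of the import genes. Its footprints went from 8.98 in wild-type DED1 to 7.36 in ded1-cs while its mRNA went from 8.3 to 8.6. The TE change was -1.97, a 3.93-fold lower TE, and the counting error of the footprint change was 0.11, per the authors' deposited table and the estimated reads. The rest of the motor went both ways. PAM16 footprints went from 6.80 to 7.81 and mRNA from 7.4 to 7.1, and PAM18 (YLR008C), the J-protein that PAM16 pairs with, kept footprints of 7.23 and 7.22 while its mRNA went from 6.9 to 7.6. Their TE changes were 1.38 and -0.68 per the authors' deposited table. PAM17 (YKR065C), which organises the motor, had 0.62, and MGE1 (YOR232W), the nucleotide exchange factor of the matrix Hsp70, had -0.24 per the authors' deposited table.

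The SAM complex, which inserts barrel proteins into the outer membrane, was also split. SAM35 (YHR083W), a receptor-like subunit, went from a footprint level of 7.28 to 5.79 at mRNA levels of 7.2 and 7.1, a TE change of -1.28 per the authors' deposited table. SAM35 had 65 estimated footprint reads in ded1-cs and a counting error of 0.19 on its footprint change. SAM37 (YMR060C) went the other way, from 6.36 to 7.12 with mRNA at 6.4 and 6.1, and its TE change of 0.99 lay just inside 2-fold per the authors' deposited table. SAM50 had 0.50 per the authors' deposited table.

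The disulfide relay, the processing peptidase and the insertase all had higher TE in ded1-cs. MIA40 (YKL195W), the oxidoreductase that folds the small Tim proteins, had footprints at 8.53 and 9.0 and mRNA at 8.3 and 7.7, a TE change of 1.13 per the authors' deposited table. Its mRNA change of -0.67 per the authors' deposited table made up more of that than its footprint change of 0.46. ERV1 (YGR029W), the oxidase that recharges it, had a TE change of 0.80 per the authors' deposited table. MAS1 (YLR163C) and MAS2 (YHR024C), which together cleave presequences, had 0.48 and 0.26, and OXA1 (YER154W), which inserts proteins into the inner membrane from the matrix, had 0.39 per the authors' deposited table.

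In ded1-cs the footprint changes of import genes spread more widely than their mRNA changes, with SDs of 0.74 and 0.28. Over all genes these SDs were 0.91 and 0.44. For some import genes the mRNA change was the larger part of the TE change. Examples were TOM20, with -0.37 in mRNA and 0.10 in footprints, and PAM18, with 0.67 and -0.01, per the authors' deposited table. Footprints were at least 2-fold lower for 3 import genes, where 16.4% of all genes were, and at least 2-fold higher for TOM6 and PAM16, where 6.26% of all genes were. Footprint changes below 0 were found for 12 of 31 genes, against 46.4% of all genes. The median mRNA change was -0.08, and 20 of 31 were below 0, against 46.6% of all genes. An mRNA change of 2-fold was found for 0 import genes in ded1-cs, where 2.04% of all genes were lower and 0.844% higher by that much. The SD of the TE level over import genes was 0.61 in the wild type and 0.96 in the mutant, and over all genes it was 0.87 and 1.27.

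**Figure D3:**
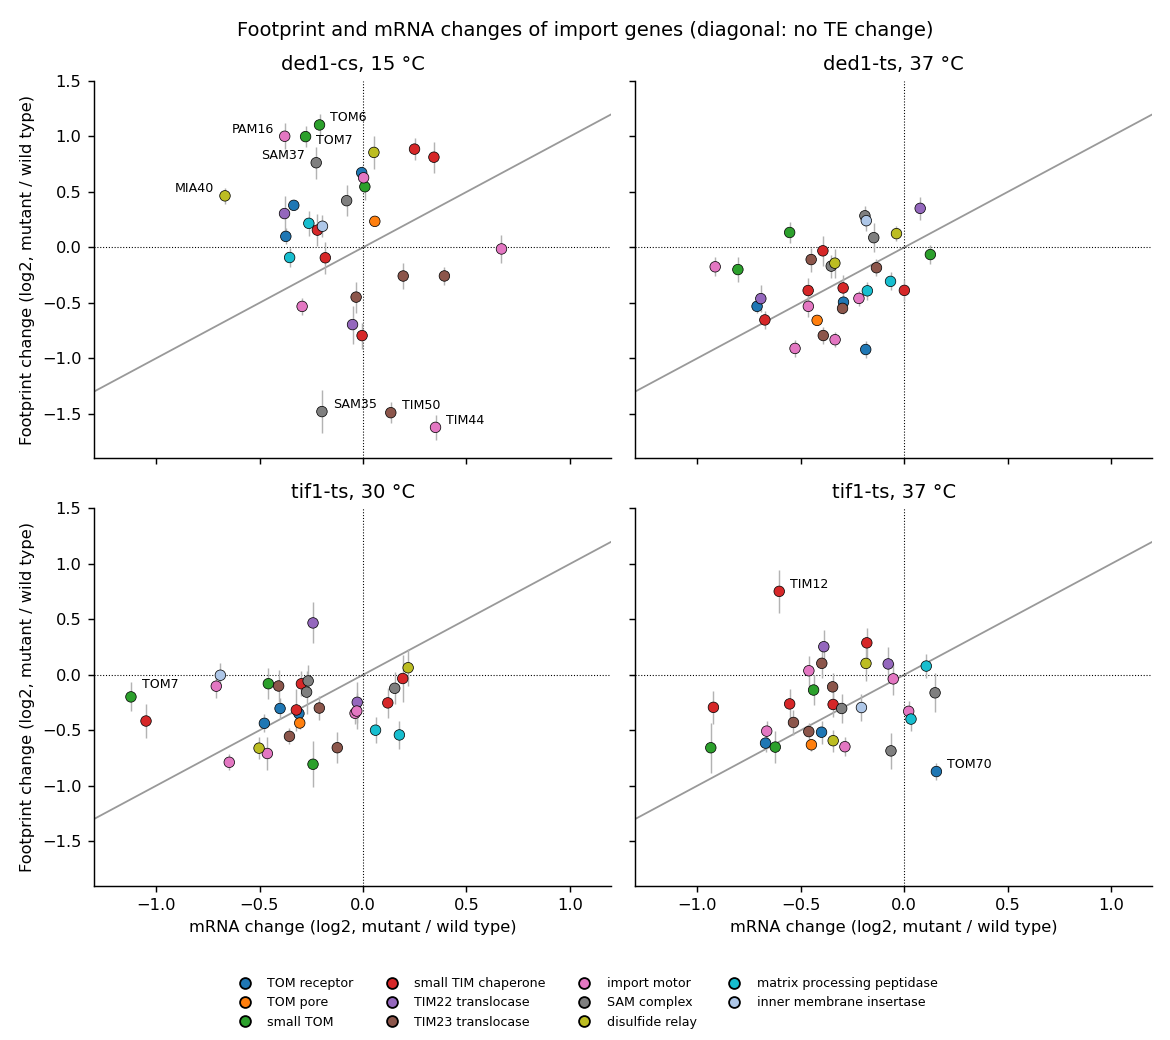
Footprint change against mRNA change (both log2, mutant over wild type, from the authors' deposited tables) for the 31 import genes in the 4 comparisons, coloured by role, with bars for the counting standard error of the footprint change and a diagonal where TE does not change. In ded1-cs the points spread along the footprint axis from -1.62 to 1.10, and in the other comparisons most sit left of and below 0.

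In ded1-ts at 37 °C the TE of import genes differed little from the wild type and their mRNA was lower. The median TE change was 0.02 against 0.08 for all genes, with a range of -0.73 to 0.74. At least 2-fold lower or higher TE was found for 0 import genes, where 4.64% and 4.18% of all genes were lower and higher. Past 1.5-fold, TOM20 was lower and PAM16, TOM6 and TOM5 were higher, against 10.4% and 13% of all genes.

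TOM20 footprints went from 9.75 to 8.83 in ded1-ts while its mRNA went from 8.3 to 8.09. Its TE change was -0.73 per the authors' deposited table, where the 2 other receptors had 0.18 (TOM22) and -0.20 (TOM70). MGE1 and TIM23 were next lowest, with TE changes of -0.50 and -0.40 per the authors' deposited table. MGE1 footprints were at 10.13 and 9.30 and its mRNA at 8.9 and 8.61, and TIM23 footprints were at 9.58 and 8.79 with mRNA at 10.1 and 9.66. In both, footprints and mRNA were lower together.

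The 3 genes with higher TE had lower mRNA and little change in footprints. PAM16 mRNA went from 8.4 to 7.54 and its footprints from 8.96 to 8.79, so that a TE change of 0.74 stood beside an mRNA change of -0.91 per the authors' deposited table. TOM6 had mRNA at 7.8 and 7.26, footprints at 8.50 and 8.63 and a TE change of 0.69 per the authors' deposited table. TOM5 had mRNA at 7.2 and 6.39, footprints at 8.24 and 8.04 and a TE change of 0.60 per the authors' deposited table. The same mRNA values enter both the TE change and the mRNA change, so an error in them moves the 2 in opposite directions.

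The small chaperones had lower footprints without a common change of TE. TIM10, which carries membrane proteins with TIM9, had footprints at 9.46 and 8.81 and mRNA at 8.3 and 7.65, while TIM9 had footprints at 8.39 and 8.0 and mRNA at 7.6 and 7.12. TIM8 had footprints at 8.25 and 7.88 and mRNA at 7.7 and 7.39, and TIM13 had footprints at 8.80 and 8.41 and mRNA at 7.3 and 7.26. TIM12 footprints were nearly level at 7.64 and 7.60 with mRNA at 7.7 and 7.28. The TE changes of these 5 genes ran from -0.39 for TIM13 to 0.36 for TIM12 per the authors' deposited table. TOM70 had footprints at 11.04 and 10.54 and mRNA at 9.2 and 8.94.

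Of the 7 import genes past 2-fold in ded1-cs, PAM16 and TOM6 had the 2 highest TE changes in ded1-ts too, and TIM44, TIM50, TOM7 and MIA40 lay between -0.25 and 0.16, per the authors' deposited table. TIM44 had footprints at 9.74 and 9.28, mRNA at 9.7 and 9.45 and a TE change of -0.24, and TIM50 had footprints at 10.54 and 9.99, mRNA at 9.2 and 8.87 and a TE change of -0.25 per the authors' deposited table. SAM35 had a TE change of 0.47 per the authors' deposited table, opposite in sign to that in ded1-cs. TOM7 had footprints at 8.82 and 8.75, mRNA at 6.8 and 6.91 and a TE change of -0.19 per the authors' deposited table. Over the 31 genes the TE changes of ded1-cs and ded1-ts had a Spearman rho of 0.34, and over 4850 genes the rho was 0.39. The points of each comparison share their libraries, and the 2 alleles were measured at different temperatures.

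In tif1-ts at 30 °C the TE changes were again small, and footprints were lower for nearly every import gene. The median TE change was -0.13 against 0.04 for all genes, with a range of -0.72 to 0.92. At least 2-fold lower or higher TE was found for 0 import genes, where 1.14% and 2.34% of all genes were. Past 1.5-fold, MAS1 was lower and TOM7, TIM18, OXA1, TIM8 and PAM17 were higher, against 5.75% and 9.29% of all genes. Footprint changes were below 0 for 29 of 31, against 50.7% of all genes, with ERV1 and TIM18 as the exceptions.

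TOM7 mRNA went from 6.2 to 5.1 in tif1-ts at 30 °C while its footprints went from 7.27 to 7.07. TIM8 was alike, with mRNA at 6.2 and 5.2 and footprints at 6.99 and 6.57. Their mRNA changes of -1.12 and -1.05 were the 2 beyond 2-fold among import genes, where 1.03% of all genes were lower by that much, and their TE changes were 0.92 and 0.63 per the authors' deposited table. TIM18 differed in that its footprints were higher, at 5.93 and 6.40 with mRNA at 6.1 and 5.9, a TE change of 0.71 per the authors' deposited table. OXA1 kept footprints of 7.65 in both while its mRNA went from 7.2 to 6.5, a TE change of 0.69 per the authors' deposited table.

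Both subunits of the processing peptidase were among the lowest. MAS1 footprints went from 7.59 to 7.05 and its mRNA from 7.5 to 7.7, and MAS2 footprints from 7.75 to 7.25 with mRNA at 7.2 and 7.3. The TE changes were -0.72 for MAS1 and -0.56 for MAS2 per the authors' deposited table. TOM5 had footprints at 6.27 and 5.46, mRNA at 5.2 and 5.0 and a TE change of -0.56 per the authors' deposited table, from 73 estimated footprint reads in the mutant and with a counting error of 0.21. TIM17 had a TE change of -0.53 per the authors' deposited table.

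The other short proteins stayed within 1.5-fold in TE. TOM6 had footprints at 6.95 and 6.87 and mRNA at 6.5 and 6.1. TIM9 had footprints at 6.23 and 5.92 and mRNA at 5.7 and 5.4, and TIM10 had footprints at 7.61 and 7.53 and mRNA at 7.2 and 6.9. In these 3 genes both assays were lower in the mutant. TIM12 had footprints at 5.74 and 5.71 and mRNA at 5.3 and 5.5, and TIM13 had footprints at 7.18 and 6.93 and mRNA at 5.7 and 5.8, so that mRNA was higher in both. The long proteins had fewer footprints, at 9.54 and 9.20 for TOM70, 9.22 and 8.67 for TIM50 and 8.31 and 7.96 for TIM44. Their mRNA stood at 8.3 and 8.0 for TOM70, at 7.6 and 7.2 for TIM50 and at 7.8 in both strains for TIM44.

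In tif1-ts at 37 °C, short import proteins had higher TE and long ones lower TE. The median over all 31 genes was 0.05 against 0.08 for all genes. TOM70 alone had a TE at least 2-fold lower, where 3.19% of all genes did, and TIM12 alone at least 2-fold higher, where 5.27% of all genes did. Past 1.5-fold, TOM70 and SAM35 were lower and TIM12, TIM18 and TIM8 higher, against 11.4% and 17.3% of all genes.

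TOM70 footprints went from 9.13 to 8.25 while its mRNA was 7.7 and 7.8, a TE change of -1.03 with a counting error of 0.08 on the footprint change, per the authors' deposited table and the estimated reads. From the rounded levels the change of TOM70 fell short of 2-fold. The 2 other receptors were near 0, with TE changes of 0.05 for TOM22 and -0.12 for TOM20 per the authors' deposited table. Footprints of all 3 were lower, by changes of -0.87 for TOM70, -0.62 for TOM22 and -0.52 for TOM20 per the authors' deposited table. SAM35 had footprints at 6.80 and 6.11, mRNA at 6.8 and 6.7 and a TE change of -0.62 per the authors' deposited table. MAS1 was next lowest, with footprints at 7.65 and 7.25, mRNA at 8.1 in both strains and a TE change of -0.43 per the authors' deposited table.

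TIM12 footprints went from 5.20 to 5.96 and its mRNA from 5.4 to 4.8, a TE change of 1.36 or 2.56-fold per the authors' deposited table. Without scaling to length, TIM12 had the lowest footprint level of the import genes in wild-type TIF1 at 37 °C, and per kilobase it ranked 28 of 30. Its footprint change of 0.75 had a counting error of 0.19. All 5 small chaperones were above 0, as were 90% of all genes under 120 residues. TIM18 and TIM8 followed TIM12 with TE changes of 0.64 and 0.63 per the authors' deposited table. TIM18 had footprints at 6.33 and 6.58 and mRNA at 6.0 and 5.7, and TIM8 had footprints at 6.64 and 6.35 and mRNA at 6.3 and 5.3, so that TIM8 had fewer footprints and a higher TE. The remaining chaperones had TE changes of 0.47 (TIM9), 0.29 (TIM13) and 0.08 (TIM10) per the authors' deposited table. TIM9 was the one with more footprints, at 6.50 and 6.79 with mRNA at 6.0 and 5.8. TIM10 had footprints at 7.49 and 7.22 and mRNA at 6.4 and 6.0, and TIM13 had footprints at 7.0 and 6.74 and mRNA at 6.1 and 5.5.

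The small TOM subunits had less mRNA and fewer footprints at 37 °C. TOM5 had footprints at 5.76 and 5.11 and mRNA at 5.6 and 4.6. TOM6 had footprints at 7.10 and 6.45 and mRNA at 6.8 and 6.2, and TOM7 had footprints at 6.94 and 6.80 and mRNA at 6.0 and 5.6. Their TE changes were 0.28, -0.03 and 0.30 per the authors' deposited table. Of the long inner membrane proteins, TIM50 had footprints at 8.76 and 8.24 and mRNA at 7.3 and 6.8, and TIM44 had footprints at 8.09 and 7.76 with mRNA at 7.8 in both strains.

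The TE changes at 30 °C and 37 °C in tif1-ts had a Spearman rho of 0.20 over the 31 genes and of 0.39 over 4827 genes.

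Lower mRNA was the change that import genes shared in the 3 comparisons at 30 °C or above. The median mRNA change was -0.33 in ded1-ts, and in tif1-ts it was -0.30 at 30 °C and -0.35 at 37 °C, whereas the median of all genes lay between -0.04 and -0.01. Changes below 0 were found for 28 of 31 genes in ded1-ts, against 50.7% of all genes. In tif1-ts they were found for 25 of 31 at 30 °C, against 51.8% of all genes, and for 26 of 31 at 37 °C, against 53.1%. In all 3 at once, 20 of 31 import genes were below 0, against 28.7% of 4746 genes. All genes under 120 residues had median mRNA changes of -0.22 in ded1-ts and -0.26 and -0.29 in tif1-ts (30 °C, 37 °C). Import genes of that length had -0.43, -0.31 and -0.58 in the same order. From 120 to 300 residues, all genes had -0.15, -0.14 and -0.24 and import genes -0.45, -0.40 and -0.40. Over 300 residues, all genes had 0.06, 0.04 and 0.05 and import genes -0.19, -0.27 and -0.06. The part of length in the lower mRNA was not tested.

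Footprints were lower by a like amount. The median footprint change was -0.37 in ded1-ts with 25 of 31 below 0, against 49.3% of all genes. The tif1-ts medians were -0.30 at 30 °C and -0.29 at 37 °C, and at the latter 23 of 31 were below 0, against 49% of all genes. By the authors' deposited table, mRNA decreased most for TOM7 and TIM8 at 30 °C, for TOM5 (-0.93) and TIM8 (-0.92) in tif1-ts at 37 °C, and for PAM16 (-0.91) and TOM5 (-0.80) in ded1-ts.

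TOM22 shows the pattern of lower mRNA at a nearly constant TE. Its mRNA went from 8.5 to 7.80 in ded1-ts and from 7.5 to 7.0 and 7.2 to 6.5 in tif1-ts at 30 °C and 37 °C. Footprints of TOM22 went from 10.18 to 9.65, from 8.80 to 8.36 and from 8.58 to 7.97. Its TE changes of 0.18, 0.04 and 0.05 per the authors' deposited table were small beside them. TOM40 was alike, with footprints at 11.32 and 10.66, 10.04 and 9.61, and 9.83 and 9.20, and mRNA at 9.5 and 9.07, 8.2 and 7.9, and 8.0 and 7.5. The TE changes of TOM40 were -0.24, -0.13 and -0.18 per the authors' deposited table.

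Few genes kept 1 direction of TE through all 4 comparisons. TOM22, TIM9 and TIM18 were above 0 in each, where 18.9% of all genes were, and TIM50, TIM44 and MGE1 were below 0 in each, where 11.4% were. Some of these values were close to 0, so their sign is uncertain. In tif1-ts, TIM9 had 0.0052 at 30 °C, TOM22 had 0.04 at 30 °C and 0.05 at 37 °C, and TIM50 had -0.05 at 37 °C. Footprints were below 0 in all 4 for 8 import genes (TIM10, TIM13, TIM17, TIM23, TIM50, TIM44, PAM18 and MGE1), where 12.5% of all genes were. They were above 0 in all 4 for 0 import genes, where 13.6% of all genes were.

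Protein length was then set against the TE change. Of the Tim and Tom proteins, 8 have fewer than 120 residues (TOM5, TOM6, TOM7, TIM8, TIM9, TIM10, TIM12 and TIM13) and 4 have more than 300 (TOM40, TOM70, TIM44 and TIM50). The shortest is TOM5 with 50 residues and the longest TOM70 with 617. The median TE change of the short group was above that of the long group in each comparison. All genes under 120 and over 300 residues showed the same order. The class over 300 residues had no upper limit, so it also held proteins longer than TOM70.

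In ded1-cs the medians were 0.50 for the 8 short and -0.72 for the 4 long proteins. All genes of the same 2 length classes had 0.72 over 187 short and -0.13 over 3357 long ones. The long group was itself divided, since TIM44 and TIM50 had -1.97 and -1.62 and TOM40 and TOM70 had 0.18 and 0.71 per the authors' deposited table. Its median therefore described none of its members, and over all 11 import proteins above 300 residues the median was 0.39.

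In ded1-ts the medians were 0.05 for the short and -0.24 for the long group, against 0.45 and -0.02 for all genes of those length classes. The 4 long proteins lay between -0.25 and -0.20, and the 8 short ones between -0.39 and 0.69. In tif1-ts at 30 °C the medians were 0.11 and -0.16, against 0.28 and -0.01 for all genes. In tif1-ts at 37 °C they were 0.30 and -0.27, against 0.47 and -0.04 for all genes. The median of the short import proteins was below that of all genes under 120 residues in each of the 4 comparisons.

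Tif1-ts at 37 °C separated the lengths most fully. TE changes were above 0 for 7 of the 8 short proteins, with TOM6 at -0.03 per the authors' deposited table, which is near the 90% of all genes under 120 residues. They were above 0 for 0 of the 11 import proteins above 300 residues, while 52.9% of all genes above 300 residues were below 0 there. Some of the 11 were close to 0, such as SAM50 (-0.0014), MAS2 (-0.028) and TIM50 (-0.051), so their sign is uncertain. The Spearman rho between length and TE change was -0.67 over the 30 import genes with a known length, against -0.39 over 4698 genes. In ded1-cs, ded1-ts and tif1-ts at 30 °C it was -0.23, -0.25 and -0.18 over the import genes, against -0.41, -0.35 and -0.21 over all genes. The points share libraries, and rho is given as a description.

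The relation of length and mRNA change differed between the comparisons. Its rho over the import genes was -0.16 in ded1-cs, 0.35 in ded1-ts and 0.19 in tif1-ts at 30 °C, against 0.22, 0.32 and 0.31 over all genes. In tif1-ts at 37 °C the rho between length and mRNA change was 0.61 over the import genes and 0.37 over all genes, and that between length and footprint change was -0.22 and -0.04. The short proteins had a median mRNA change of -0.58 and a median footprint change of -0.26, the 4 long Tim and Tom proteins had -0.21 and -0.57, and all 11 long import proteins had -0.06 and -0.40. Single genes departed from these medians, since TOM6 had changes of -0.62 in mRNA and -0.65 in footprints, and TIM50 had -0.46 and -0.51, per the authors' deposited table. The part of the mRNA libraries in the relation of length and TE was not tested.

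**Figure D4:**
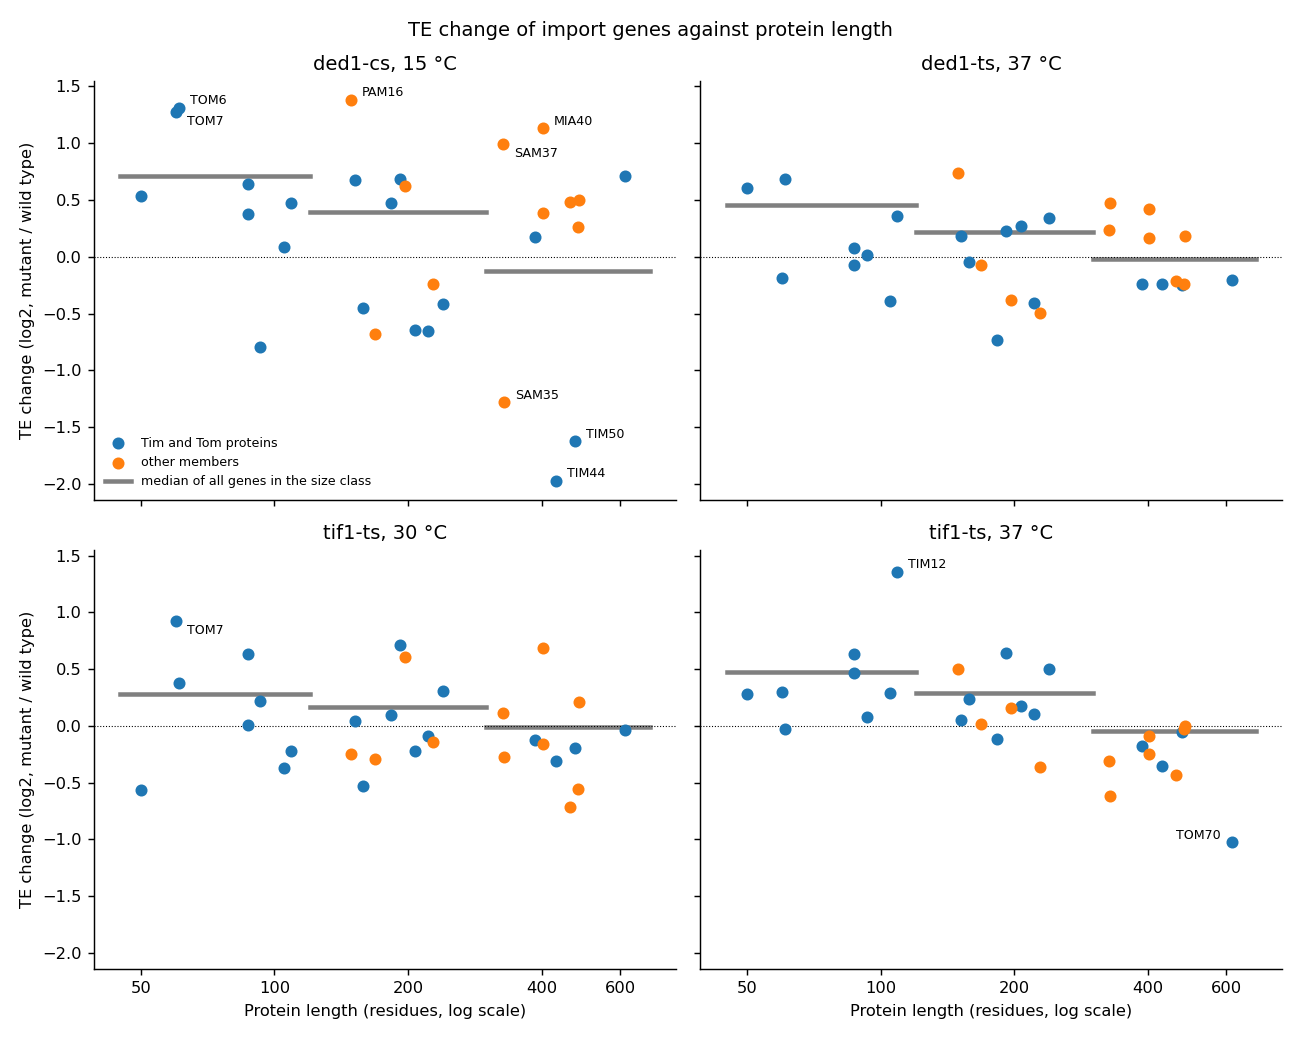
TE change (log2, mutant over wild type, from the authors' deposited tables) against protein length in residues on a log axis for 30 import genes, with Tim and Tom proteins in blue, the other members in orange and grey bars at the median of all genes under 120, from 120 to 300 and over 300 residues. In tif1-ts at 37 °C all 11 import proteins over 300 residues lie at or below 0, and in ded1-cs the long ones run from -1.97 to 1.13.

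Subunits that work as pairs were compared by the ratio of their footprints per kilobase, which approximates the ratio of their synthesis. TIM50 and TIM23 had log2 footprint ratios of -0.48, -0.14, 0.15 and 0.07 in the 4 wild types, although their mRNA ratios were -1.40, -2.0, -1.40 and -1.60. In ded1-cs the footprint ratio went to -1.72, a change of -1.23 with a counting error of 0.12. TIM50 thus had 2.35-fold fewer footprints relative to TIM23 than in the wild type. In the other 3 comparisons the footprint ratio of this pair changed by 0.24, -0.26 and -0.08.

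TIM9 and TIM10, which assemble in equal numbers, had wild-type footprint ratios of -1.26, -0.97, -1.28 and -0.90 per kilobase, so TIM10 always had more. In ded1-cs the ratio moved to -0.30, a change of 0.95 with a counting error of 0.19. TIM8 and TIM13 had wild-type ratios of 0.58, -0.28, 0.08 and -0.09, and the ratio went to 1.56 in ded1-cs. PAM16 and PAM18 had -0.26, 0.15, 0.61 and 0.36, and the ratio went to 0.76 in ded1-cs, a change of 1.02 with a counting error of 0.17. Of the 7 pairs with a ratio per kilobase, TIM17 and TIM23 kept theirs in ded1-cs, at -0.46 in both strains. In ded1-ts and in tif1-ts at 30 °C and 37 °C the TIM17/TIM23 ratio changed by 0.61, -0.36 and 0.32. In the same order TIM9/TIM10 changed by 0.27, -0.24 and 0.56, and PAM16/PAM18 by 0.36, -0.38 and 0.07. TIM8/TIM13 changed by 0.02, -0.16 and -0.03, and MAS1/MAS2 by -0.085, -0.043 and -0.48. Counting errors of these changes ran from 0.11 to 0.22.

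**Figure D5:**
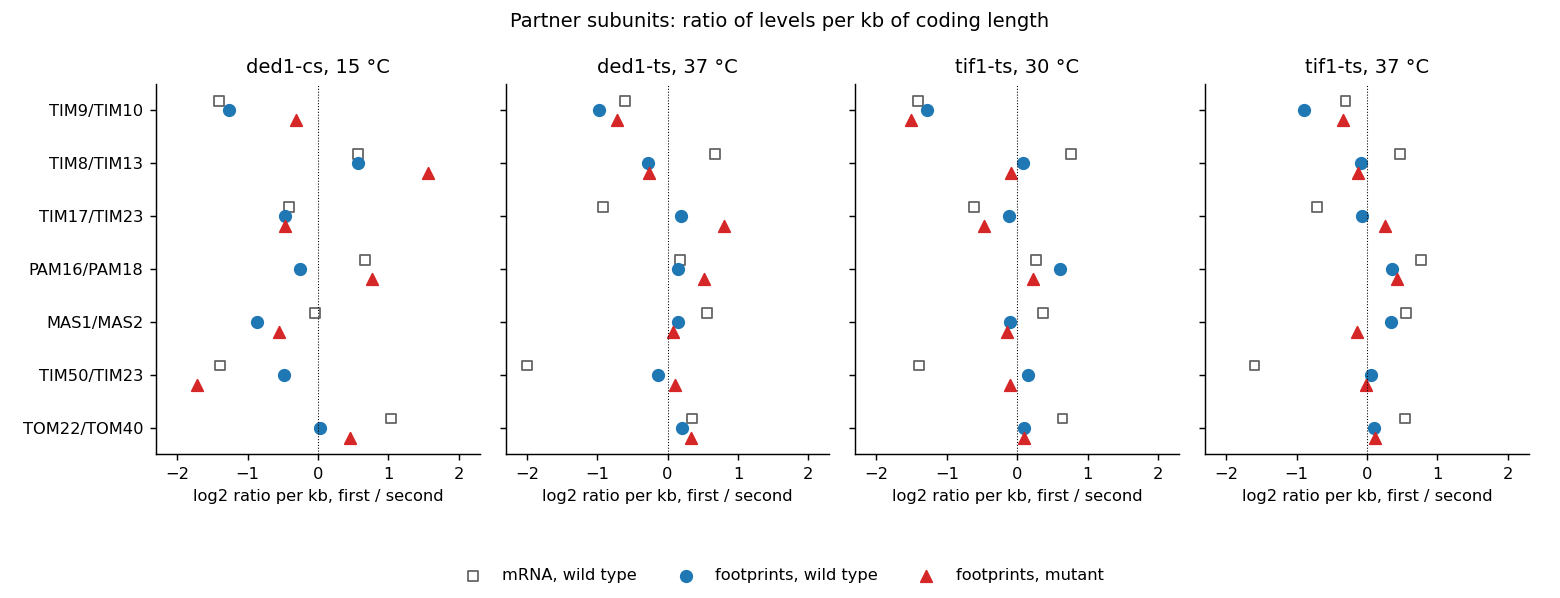
Log2 ratio of footprints per kilobase of coding length (first over second subunit) for 7 pairs of partner subunits in wild type (circles) and mutant (triangles), with the wild-type mRNA ratio (squares). TIM50/TIM23 moves from -0.48 to -1.72 in ded1-cs, and the mRNA ratio of this pair lies far to the left of its footprint ratio in the ded1-ts, 30 °C and 37 °C panels.

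The remaining genes of the import pathway, among them the matrix chaperones and further peptidases, gave 20, 23, 19 and 20 genes above the abundance floor of 24 listed in the 4 tables. Their median TE change was 0.11 in ded1-cs, 0.17 in ded1-ts and close to 0 in both tif1-ts comparisons. In ded1-cs, TE was at least 2-fold lower for TAM41 (-2.17), an enzyme of cardiolipin synthesis, and the peptidases IMP1 (-2.04) and ICP55 (-1.23), per the authors' deposited table. It was at least 2-fold higher for the J-protein MDJ1 (1.16) per the authors' deposited table. These were 3 lower and 1 higher of 20, against 17.4% and 8.63% of all genes. TAM41 and IMP1 had 28 and 13 estimated footprint reads in ded1-cs, with counting errors of 0.28 and 0.42 on their footprint changes. In ded1-ts, TE was at least 2-fold higher for ECM10 (1.73) and for SOM1 (1.05), a partner of the inner membrane peptidase, per the authors' deposited table. These were 2 of 23, against 4.18% of all genes. ECM10 is a close copy of SSC1 and may share reads with it, so its values are uncertain. At 30 °C in tif1-ts, 0 of the 19 genes above the abundance floor passed 2-fold in TE or mRNA (ECM10 was below the floor), and the extremes were MDM38 (-0.71) and ZIM17 (0.55) per the authors' deposited table.

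SSC1 and HSP60, singled out after their values were seen, had fewer footprints in tif1-ts, and the other matrix chaperones varied. SSC1, the Hsp70 that drives the import motor, had footprints at 12.37 and 11.30 at 30 °C and at 12.63 and 11.07 at 37 °C. HSP60, the matrix chaperonin, had footprints at 11.85 and 10.58, and at 12.76 and 11.20. The TE change of SSC1 was -0.39 at 30 °C and -1.06 at 37 °C, and that of HSP60 -0.51 and -0.59, per the authors' deposited table. Their mRNA was lower too, with changes of -0.68 and -0.49 for SSC1 and -0.77 and -0.97 for HSP60 per the authors' deposited table. HSP10, the co-chaperonin, had an mRNA change of -1.27 at 37 °C beside a TE change of 0.73 per the authors' deposited table. ECM10 had a TE change of 2.70 at 37 °C per the authors' deposited table, with the same doubt as above. ZIM17, a partner of the matrix Hsp70, had footprint changes of 0.56 at 30 °C and 0.0015 at 37 °C, and MDJ1 had -0.14 and -0.39, per the authors' deposited table.

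In wild-type TIF1, the import genes had a slightly lower TE level at 37 °C than at 30 °C. The median difference of TE levels was -0.13 against -0.005 for all genes, and 23 of 31 were below 0, against 50.5% of all genes. In tif1-ts the median difference was 0.01 over the import genes and over all genes, with 15 of 31 below 0 against 49.1%. These differences span 2 tables that were normalized separately. They rest on mRNA levels printed to 1 decimal, so the sign is uncertain for genes near 0, such as SAM35 (-0.002) and TOM40 (-0.012) in wild-type TIF1. In wild-type TIF1, TOM5 (-0.91), PAM16 (-0.85) and MAS2 (-0.78) had the lowest differences of TE level and TIM10 (0.68) the highest, computed from the authors' values. The median difference of footprint levels was -0.22 and that of mRNA levels -0.10 over the import genes.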

How the data were processed

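Gene-level log2 abundances of footprints and mRNA were deposited by the authors in 4 tables, with 1 column per group of 2 labelled replicates, together with log2 differences (mutant minus wild type); the sources used here do not say how replicates were combined. CASAVA 1.8, Bowtie2 2.0.6, TopHat2 2.0.7, DESeq and sacCer2 are named, without roles, per the submitters' processing notes. Deposited mRNA levels carry 1 decimal in most columns, so the deposited differences were used for changes, and TE levels are footprint minus mRNA.

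Genes entered at a mean abundance of at least 10 in both assays. Changes were counted at 2-fold, beside all genes of the table. Read steps in low footprint values gave depth and counting errors; these leave out differences between cultures, and PCR copies were not told apart from molecules. The estimate was tested on simulated data in which every column held whole reads with 1 fixed value per read. That setting does not cover a column such as ded1-cs, where 47.3% of low values came out as whole reads. Coding lengths came from a RefSeq gene table of another assembly, so no coordinates are given; all but 2 genes per table matched, and ERV1, whose length is no multiple of 3, was left out of length comparisons. No import gene overlaps another annotated gene there. Members and lists were chosen with earlier results of these data known, and the partner pairs after seeing the data. All members could be named; levels are given for the 3 highest and 3 lowest TE changes per comparison and for the short and long Tim and Tom proteins, and other import genes past 2-fold in TE or mRNA, else the extremes. SSC1 and HSP60 at 30 °C were chosen after their values were seen. Python 3.11.15, numpy 2.4.6, pandas 2.3.3 and matplotlib 3.10.9 were used.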

Additional observations from a re-analysis of the deposited data

How the results depend on the processing

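No paired analysis was possible because each deposited column pools the 2 replicates of a group, and leaving out a replicate was not possible for the same reason. Of the values recomputed under another setting, 123 stayed within 0.1 (or within 1.5 times for counts) and 30 moved further. The remaining 1, the rho of length and TE change in tif1-ts at 37 °C, was reversed over long members (-0.67 to 0.22). Some values among the 123 and the 30 also crossed 0. The median TE change of ded1-ts went from 0.019 to -0.058 relative to the median of all genes. In ded1-cs the rho went from -0.23 to 0.055 over long members. The cause of these differences was not tested except where the setting itself changes the genes counted.

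At a 1.5-fold threshold the counts of lower and higher TE were 7 and 11 in ded1-cs, 1 and 3 in ded1-ts, 1 and 5 in tif1-ts at 30 °C and 2 and 3 at 37 °C. At an abundance floor of 100, 24 import genes were left in ded1-cs with a median TE change of 0.32, and 15 in tif1-ts at 37 °C with a median of -0.088 and 0 genes with 2-fold higher TE. At that floor mRNA was below 0 for 13 of 16 genes in tif1-ts at 30 °C and 11 of 15 at 37 °C, which reflects the fewer genes. Relative to the median of all genes the ded1-cs median was 0.37. From differences of the rounded levels, 0 genes had a 2-fold lower TE in tif1-ts at 37 °C.

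The difference of medians between short and long Tim and Tom proteins (short minus long) rested on few genes. In ded1-cs it was 1.23, and it became 0.33 without TIM44 or without TIM50, 2.13 without TOM40 or without TOM70 (settings chosen after seeing the data), 0.92 when split at the median length, 0.12 over all import genes and 1.09 at the floor of 100. In tif1-ts at 30 °C it was 0.28, and 0.11 when split at the median length or 0.38 at the floor of 100. At 37 °C it was 0.56, and 0.34 when split at the median length; it was not run there at the floor of 100, where no short protein was left. The Spearman rho of length and TE change in tif1-ts at 37 °C was 0.22 over the 11 members above 300 residues and -0.20 over the 19 below, so it rested on the contrast between the length classes. The same values were 0.055 and -0.42 in ded1-cs; the rho was -0.45 over the 11 long members in ded1-ts and 0.00088 over the 19 shorter ones in tif1-ts at 30 °C.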
